A study of Mus musculus with 14 samples.

Results

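The transcripts followed here are those of 40 genes with known roles in the cell cycle, chosen by gene symbol, in mouse liver. They comprise 4 genes of G1 entry and its inhibition, 14 genes of DNA replication and 22 genes of G2 and mitosis. All 40 were among the 45706 genes of the deposited count table, and all 40 were among the 15674 genes with enough counts to be tested. RNA was sequenced in 14 liver libraries from male C57BL6/J mice that entered the study at 8 weeks of age. The chow group (4 libraries, CD in the titles) received a standard chow diet for 16 weeks. The other groups received for 16 weeks a MASH diet, which leads to metabolic dysfunction-associated steatohepatitis, a fatty liver disease with inflammation and scarring. The MASH group (3 libraries, replicates 2, 3 and 4) has no compound in its titles. The labels say neither whether these mice received vehicle nor whether they were kept for the 6 further weeks of the compound groups. Length of diet and age may thus differ in every comparison with MASH. The chow labels likewise give no treatment weeks, so length of diet and age may also differ between chow and the compound groups. The C18:1 group (4 libraries, OA in the titles) and the C18:1-leucine group (3 libraries, replicates 1, 2 and 4, OAL in the titles) stayed on the MASH diet for 6 more weeks with C18:1, a monounsaturated fatty acid, or with C18:1-leucine, the fatty acid joined to the amino acid leucine. No dose is stated in the labels. All mice were of the same strain and sex, with no transgene named in the labels.

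Whether each library was made from its own mouse is not stated in the labels, so p-values measure only the spread between these libraries, which may be technical. Library totals ran from 33821874 to 51107248 counts. Hepatocyte transcripts (Alb, Apoa1 and 6 others) summed to between 43479 and 108339 CPM (the usual depth-scaled count of a gene, here over TMM-scaled library sizes) in all 14 libraries, so the labelled tissue was seen in each. For C18:1 replicate 1 the treatment tag names the diet and for C18:1-leucine replicate 1 it names C18:1, against their titles. Titles set the groups below, and each comparison with either group is also given without both libraries. C18:1-leucine replicate 2 and chow replicate 2 held transcripts of pancreatic enzymes (sums of 802 and 159 CPM, and at most 1.61 CPM in any other library), so the counts that lead each comparison are also given without those 2 libraries. Values are listed in the order of the replicate numbers throughout.

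A cell that leaves quiescence passes through G1, in which cyclin D1 (Ccnd1) and cyclin E (Ccne1, Ccne2) act with their kinases to inactivate the retinoblastoma proteins and release E2F transcription factors, while p21 (Cdkn1a) inhibits those kinases. E2F then drives genes of S phase: the MCM helicase that opens the DNA, its loaders Cdc6 and Cdt1, its partner Cdc45, the sliding clamp Pcna, and the enzymes that supply nucleotides (Rrm1, Rrm2, Tyms, Tk1). Genes of G2 and mitosis follow later, under the MuvB complex with B-Myb and FOXM1, and their products build the spindle, attach chromosomes to it and time their separation. Hepatocytes of an adult liver are mostly quiescent, and can replicate their DNA without dividing, so that many become polyploid.

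Promoters of both sets are shown because the results below turn on the difference between the replication and the mitosis genes. Windows of 300 bases, from 250 bases before to 50 bases after the start site of RefSeq (GRCm38.p6), were found for 32 of the 40 genes (34 windows). The elements searched on both strands were TTTGAA, the core of the cell cycle homology region bound by MuvB, CCAAT, the box bound by NF-Y, and as sites of E2F the word TTCCCGC with its variants TTGGCGC and, differing in the middle, TTCGCGC or else TTGCCGC. Matches that overlap, as the mirrored E2F sites do, were each counted. In the sequences, written 5′ to 3′ along the gene, capitals mark every match of any of these elements. The mitosis genes shown are cyclin B2 (Ccnb2, chr9:70421505-70421804, minus strand), the activator of the anaphase-promoting complex Cdc20 (chr4:118437294-118437593, minus strand) and the mitotic kinase Plk1 (chr7:122159185-122159484, plus strand).
Ccnb2: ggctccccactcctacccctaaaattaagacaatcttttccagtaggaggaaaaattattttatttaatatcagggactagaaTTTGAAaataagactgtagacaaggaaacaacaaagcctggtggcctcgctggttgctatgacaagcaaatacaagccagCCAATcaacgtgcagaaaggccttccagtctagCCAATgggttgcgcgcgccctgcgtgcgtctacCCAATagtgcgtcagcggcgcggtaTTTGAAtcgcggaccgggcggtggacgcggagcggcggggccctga
Cdc20: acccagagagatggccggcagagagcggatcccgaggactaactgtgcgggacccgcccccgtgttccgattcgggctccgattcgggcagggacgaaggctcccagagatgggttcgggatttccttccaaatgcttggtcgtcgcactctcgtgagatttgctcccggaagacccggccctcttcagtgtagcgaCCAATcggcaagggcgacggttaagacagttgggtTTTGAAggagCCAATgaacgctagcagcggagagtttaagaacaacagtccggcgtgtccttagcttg
Plk1: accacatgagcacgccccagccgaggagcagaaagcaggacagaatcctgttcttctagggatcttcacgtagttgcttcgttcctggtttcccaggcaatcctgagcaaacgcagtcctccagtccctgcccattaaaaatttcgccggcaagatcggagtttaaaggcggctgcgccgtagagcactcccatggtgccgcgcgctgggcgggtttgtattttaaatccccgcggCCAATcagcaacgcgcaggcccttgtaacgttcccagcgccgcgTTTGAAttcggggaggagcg
These 3 windows hold 2, 1 and 1 matches of TTTGAA and 3, 2 and 1 of CCAAT, and no E2F match.

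The replication genes shown are 2 subunits of the MCM helicase that rose, Mcm3 (chr1:20820263-20820562, minus strand) and Mcm5 (chr8:75109259-75109558, plus strand), and thymidine kinase 1 (Tk1, chr11:117825965-117826264, minus strand), which fell.
Mcm3: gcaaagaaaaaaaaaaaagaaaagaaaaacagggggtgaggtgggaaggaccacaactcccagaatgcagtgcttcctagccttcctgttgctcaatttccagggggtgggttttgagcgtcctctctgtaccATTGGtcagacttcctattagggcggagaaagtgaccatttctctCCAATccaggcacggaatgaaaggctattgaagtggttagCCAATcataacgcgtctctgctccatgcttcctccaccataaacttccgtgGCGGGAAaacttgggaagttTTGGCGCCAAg
Mcm5: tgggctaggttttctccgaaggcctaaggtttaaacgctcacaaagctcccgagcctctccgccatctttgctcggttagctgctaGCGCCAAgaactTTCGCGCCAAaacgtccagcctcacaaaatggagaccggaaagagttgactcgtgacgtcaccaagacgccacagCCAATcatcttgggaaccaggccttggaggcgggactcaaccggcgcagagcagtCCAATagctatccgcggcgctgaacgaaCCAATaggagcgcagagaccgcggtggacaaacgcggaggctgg
Tk1: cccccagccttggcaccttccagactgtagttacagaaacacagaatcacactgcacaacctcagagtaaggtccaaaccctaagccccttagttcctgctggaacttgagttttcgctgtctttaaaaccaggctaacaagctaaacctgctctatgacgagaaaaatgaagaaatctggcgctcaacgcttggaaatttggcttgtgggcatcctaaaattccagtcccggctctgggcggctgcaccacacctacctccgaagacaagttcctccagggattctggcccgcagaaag
The windows of Mcm3 and Mcm5 each hold 3 CCAAT and 3 E2F matches and no TTTGAA. The window of Tk1 holds none of the elements searched. Its RefSeq start lies inside the gene as GENCODE M21 draws it, and these letters say nothing on elements outside the window. Over the sets, TTTGAA stood in 12 of 17 mitosis windows (70.6%) and in 2 of 14 replication windows (14.3%, Cdc45 and Mcm2), against 17.9% of 32851 promoter windows of all genes. An E2F match stood in 3 of 17 mitosis windows (17.6%) and in 9 of 14 replication windows (64.3%), against 9.57% of all windows. The 14 replication windows cover 13 genes, since Mcm4 had no window and Mcm7 had 2, both with an E2F match. CCAAT stood in 88.2% of mitosis and 71.4% of replication windows, against 37.4% of all. E2F matches also stood in Mcm6 and Rrm1, which rose in MASH, and in Cdc6, Cdt1, Mcm7 and Rrm2, which were not called. Mcm2 rose, and its window held TTTGAA and no E2F match. The windows of Cdc45, Pcna and Tyms, not called, held no E2F match. Ccnb1, with the largest rise of the mitosis genes, held an E2F match and no TTTGAA. A match is a description of the letters, not a sign of binding.

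In MASH liver the mitosis genes were higher than in chow liver almost throughout, while the replication genes split. Of the 40 members 28 were called higher and 1 lower in the MASH group (edgeR's quasi-likelihood test, Benjamini-Hochberg adjusted p below 0.05 over all tested genes), against a background of 20.4% of all tested genes called higher, 15.1% called lower and 35.5% called in all. The 22 mitosis genes all had positive log2 fold changes, with a median of 2.02, and 20 passed. Of the 14 replication genes 6 passed as higher and 1 as lower, with a median of 0.41. The median of all tested genes was 0.0064. In these bulk libraries, more cells of a dividing type and more RNA per cell cannot be told apart.

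**Figure D1:**
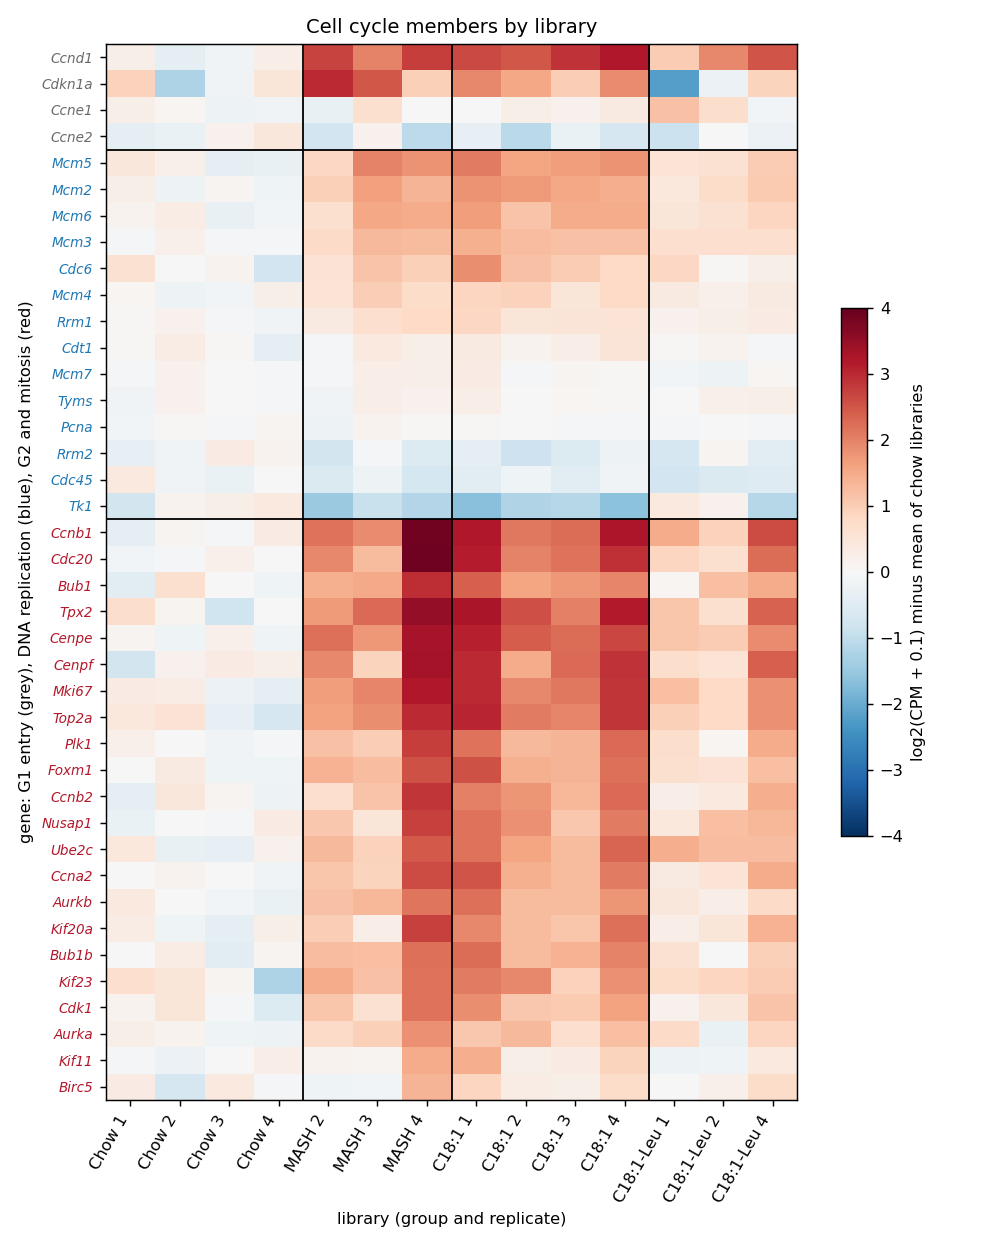
Level of each of the 40 genes in each of the 14 libraries, as log2(CPM + 0.1) minus the mean of the 4 chow libraries (colour, blue lower and red higher); genes are in their 3 role sets and libraries in their groups. The mitosis block is mostly red across the MASH and C18:1 libraries and paler in the C18:1-leucine libraries. Birc5 and Kif11 stay near the chow level in MASH replicates 2 and 3. Tk1 is blue in the MASH and C18:1 libraries.

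Among the genes of G1 entry, cyclin D1 (Ccnd1, ENSMUSG00000070348, chr7:144929931-144939925 of GRCm38, minus strand) stood at 13.1, 8.53, 9.92 and 13.2 CPM in chow and 72.2, 43.9 and 76.1 CPM in MASH libraries. Every MASH library was thus far above every chow library, and the log2 fold change was 2.52 ± 0.32 (SE; 5.73-fold; adjusted p = 0.00011, edgeR). Cdkn1a, the p21 inhibitor (chr17:29090976-29100727, plus strand), stood at 44.8, 10.01, 21.4 and 33.0 CPM in chow and 190.1, 132 and 45.7 CPM in MASH. It was called higher (log2 fold change 2.17 ± 0.66, adjusted p = 0.0224), but MASH replicate 4 lay next to chow replicate 1. The call did not survive leaving out chow replicate 3 (adjusted p = 0.0561), replicate 2 of MASH (0.0967) or replicate 3 of MASH (0.0557). It was also lost without the 2 libraries with pancreatic transcripts (adjusted p = 0.0611), without the filter on low counts (0.0587) and with a replicate block (0.0544). The cyclin E genes were not called: Ccne1 had a log2 fold change of 0.18 (95% interval −0.47 to 0.83) and Ccne2 of −0.53 (−1.29 to 0.24).

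The MCM helicase is a ring of the 6 proteins Mcm2 to Mcm7, and 5 of their 6 genes rose. Mcm2 (chr6:88883474-88898780, minus strand) stood at 3.08, 2.25, 2.82 and 2.27 CPM in chow and 5.13, 8.24 and 6.83 CPM in MASH. Mcm3 stood at 3.54, 4.21, 3.499 and 3.502 CPM in chow and 6.38, 9.13 and 8.96 CPM in MASH, and Mcm5 at 2.27, 1.93, 1.26 and 1.32 CPM and 3.002, 6.75 and 5.91 CPM. MASH replicate 2 was the lowest of its group for all 3 genes. The log2 fold changes were 1.37 ± 0.19 for Mcm2, 1.15 ± 0.13 for Mcm3, 0.78 ± 0.14 for Mcm4, 1.62 ± 0.28 for Mcm5 and 1.28 ± 0.21 for Mcm6 (SE; adjusted p from 4.60e-05 to 0.00129), with no overlap between the groups. Over all members, 27 had every MASH library above every chow library, where 22.5% of all tested genes did. Mcm7 (chr5:138164583-138172422, minus strand) stood at 14.9, 17.95, 15.6 and 15.4 CPM in chow and 14.9, 19.1 and 18.9 CPM in MASH. Its groups overlapped, and its log2 fold change of 0.15 had an interval (−0.10 to 0.39) that ended below those of the other 5 genes, the lowest of which began at 0.47 for Mcm4. Per kilobase of exon, Mcm7 was already the most abundant of the 6 in chow, at a mean of 3.61 CPM per kb against 0.374 for Mcm2 to 1.09 for Mcm4. In MASH the others stood between 0.968 (Mcm2) and 2.17 (Mcm3) CPM per kb, still below the 3.99 of Mcm7.

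The remaining replication genes did not move as a block. Rrm1, the large subunit of ribonucleotide reductase, rose by 0.63 ± 0.12 (log2, SE; adjusted p = 0.00194), whereas Rrm2, its small subunit, had −0.45 (interval −0.95 to 0.05). Pcna stood at 31.1, 34.7, 32.5 and 36.4 CPM in chow and 29.4, 37.1 and 34.8 CPM in MASH. Its log2 fold change of 0.0034 had an interval of −0.17 to 0.17, so that a change of either sign beyond this size lay outside it. Its deposited counts are fractional, so reads may be shared with another locus and its level is uncertain to that extent. Tyms (0.11), Cdt1 (0.18), Cdc6 (1.12, adjusted p = 0.0766) and Cdc45 (−0.52, adjusted p = 0.0671) were not called. Cdc6 was called with limma voom (adjusted p = 0.0482). It also passed in edgeR with a replicate block (0.0133), with groups from the tags (0.0141) and without chow replicate 1 (0.0382). Cdc45 was called lower with DESeq2 (0.0416) and, in edgeR, without MASH replicate 3 (0.0378). Cdc6 was the lowest of the set, with at most 0.503 CPM in these 7 libraries.

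Tk1, which salvages thymidine for DNA synthesis, went the other way. It stood at 16.2, 29.6, 31.7 and 35.5 CPM in chow and 9.58, 14.6 and 12.0 CPM in MASH. All 3 MASH libraries lay below the lowest chow library, which was replicate 1. Tk1 fell by 1.23 on the log2 scale (SE 0.34, adjusted p = 0.0148), and the call was lost without MASH replicate 2 (adjusted p = 0.0592) or MASH replicate 4 (0.0549).

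**Figure D2:**
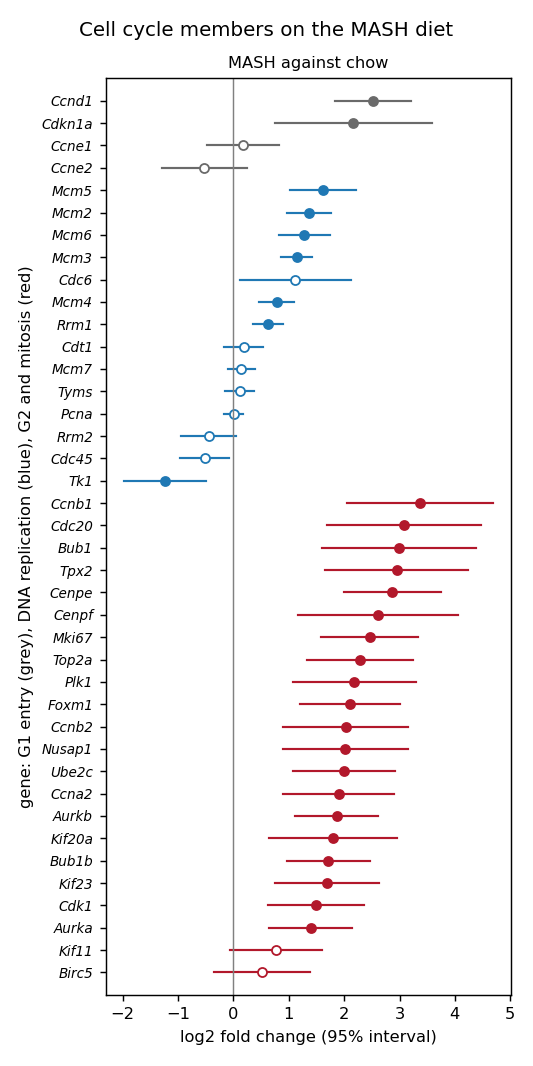
Log2 fold change of each of the 40 genes in MASH against chow (points, with 95% intervals from edgeR as lines), by role set; filled points passed an adjusted p of 0.05. The 22 red mitosis genes lie right of 0 with 20 filled, and the 14 blue replication genes run from Mcm5 at 1.62 to Tk1 at −1.23.

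Among the mitosis genes, Mki67, which encodes the Ki-67 protein that coats mitotic chromosomes and is used to stain cycling cells (chr7:135689784-135716361, minus strand), stood at 2.65, 2.58, 1.74 and 1.56 CPM in chow and 6.87, 8.24 and 20.01 CPM in MASH. MASH replicate 4 stood well above the other two, and all 3 exceeded chow (log2 fold change 2.46 ± 0.41, adjusted p = 0.000707). Ccnb1, the cyclin of the kinase that starts mitosis, stood at 0.144, 0.237, 0.201 and 0.294 CPM in chow and 1.30, 1.08 and 4.46 CPM in MASH. Its log2 fold change of 3.37 ± 0.61 was the largest of the 40, but it also has fractional counts, and a pseudogene copy (Ccnb1-ps) could share its reads. Cdc20 followed (3.08 ± 0.64), at 0.345, 0.356, 0.453 and 0.383 CPM in chow and 1.74, 1.05 and 7.02 CPM in MASH. The kinetochore motor Cenpe (2.87 ± 0.41) had the smallest p of the mitosis genes, at 0.345, 0.267, 0.378 and 0.265 CPM in chow and 1.78, 1.26 and 3.93 CPM in MASH. MASH replicate 4 was the highest of its group for each of these genes. Top2a, the topoisomerase that untangles chromosomes, was also highest there, at 1.41, 1.60, 0.805 and 0.618 CPM in chow and 3.39, 4.003 and 8.82 CPM in MASH (2.29 ± 0.44). The spindle checkpoint kinase Bub1 (2.99 ± 0.64) and the spindle assembly factor Tpx2 (2.95 ± 0.60) also rose without overlap. Bub1 was barely detected in chow, with 1 count in the lowest library, so its fold change depends on few reads. The smallest rises that passed were those of Aurka (1.40), Cdk1 (1.49) and Kif23 (1.69). Kif20a passed (1.79, adjusted p = 0.0197) although its groups overlapped, and lost the call with limma voom (adjusted p = 0.0567), without chow replicate 3 (0.0538), without the 2 libraries with pancreatic transcripts (0.0592) and without MASH replicate 4 (0.70, adjusted p = 0.237). Kif11 (0.77) and Birc5 (0.51) did not pass. Per kilobase the median mitosis gene went from 0.127 CPM per kb in chow to 0.523 in MASH, and the median replication gene from 0.965 to 1.55, so replication transcripts were the more abundant in both groups.

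The rise of the mitosis genes differed in size between MASH libraries. Relative to the mean of chow, and averaged over the 22 genes as log2 CPM, the libraries stood at 1.38 (replicate 2), 1.21 (replicate 3) and 2.83 (replicate 4), with chow libraries between −0.13 and 0.14. Averaged over the 14 replication genes, the same libraries stood at 0.12, 0.68 and 0.50, with chow between −0.10 and 0.07. The order of the libraries thus differed between the sets: replicate 3 was the highest of all 14 libraries for replication and the lowest of the MASH group for mitosis, and replicate 2 was close to chow for replication only. Without MASH replicate 4, 19 of the 29 calls were kept. Those lost were Tk1 and 9 mitosis genes, among them Ccna2, Ccnb2, Cdk1, Plk1 and Aurka, which left 11 mitosis genes called higher and a median of 1.34. Without the 2 libraries with pancreatic transcripts, 26 members were called higher.

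**Figure D3:**
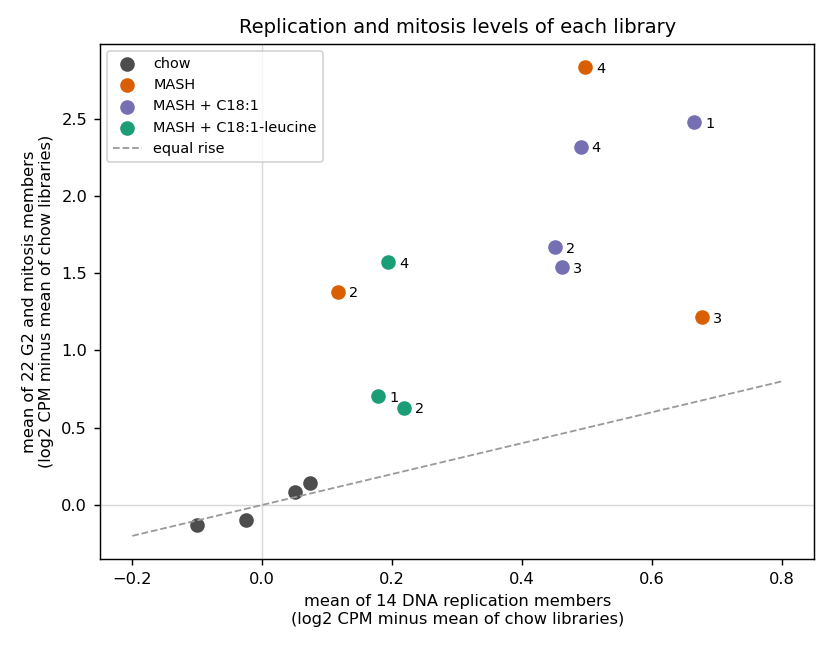
Mean level of the 22 mitosis genes (vertical) against the mean level of the 14 replication genes (horizontal) in each library, both as log2 CPM minus the mean of the chow libraries; numbers are replicates and the dashed line marks an equal rise of both. The 4 chow libraries sit near the origin, the 10 libraries from mice on the MASH diet all lie above the dashed line, and MASH replicates 3 and 4 stand apart in opposite directions.

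Other genes of the same pathways, listed apart from the 40, were also tested in MASH against chow. Of 40 further mitosis genes 35 were called higher and none lower (median 2.06), among them the chromosomal passenger Incenp (1.44, adjusted p = 0.000179), the condensin subunit Ncaph (1.61), the midzone protein Prc1 (2.85) and the kinesin Kif15 (2.35). Of 29 tested further replication genes 7 were called higher and 1 lower (median 0.30), a share higher that is near the 20.4% of all tested genes. Among the calls, the GINS helicase subunit Gins2 (1.89), DNA ligase Lig1 (1.27), the methylation maintenance factor Uhrf1 (2.56) and the checkpoint adaptor Clspn (1.79) rose, and the origin factor Mcm10 fell by 0.90. Of 18 tested E2F, RB and MuvB regulators 3 rose (Rbl1 1.37, E2f2 1.61 and E2f1 0.73), a share likewise near the background. Another 5 fell, among them Rbbp4 (−0.30) and Rbl2 (−0.44), where 15.1% of all tested genes were called lower. The median of this list was −0.10. Of 14 further G1 genes 4 rose (Myc 1.06, Skp2 0.72, Cdk6 0.49 and Ccnd2 0.79) and Ccnd3 fell by 0.34. With so few genes, these counts too are near the background. Of 16 targets of p53 other than Cdkn1a 9 rose and none fell, where 20.4% of all tested genes were called higher and 15.1% lower. They were led by Phlda3 (2.00, adjusted p = 0.000315), Eda2r (2.63), Zmat3 (0.71) and Bax (0.51).

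Transcripts of other cell types moved in the same comparison. The 10 markers of recruited macrophages, among them Trem2, Gpnmb and Spp1, summed to between 60.3 and 97.3 CPM in chow and 311, 394 and 702 CPM in MASH, and 10 of 10 were called higher. Without Spp1, which makes up much of the sum in MASH replicate 4, the MASH libraries stood at 246, 314 and 366 CPM and chow between 35.1 and 64.03 CPM. The 7 cholangiocyte markers, which share Spp1 with the macrophage list, summed to between 33.1 and 47.8 CPM in chow and 75.8, 92.2 and 366.5 CPM in MASH, with 2 called higher. Without Spp1 they stood at 10.97, 12.5 and 30.7 CPM in MASH, of which the first 2 were within the chow range of 7.53 to 13.1 CPM, and 1 of 6 was called higher. MASH replicate 4 was the highest of its group for both lists, with or without Spp1, as it was for the mitosis genes. Of 7 T and NK cell markers 3 were called higher (6.36, 6.31 and 4.73 CPM summed in MASH, lowest in replicate 4), of 7 stellate cell markers 5, and of 8 hepatocyte markers 7 were called lower (86495 to 108339 CPM in chow, 55225 to 62694 CPM in MASH). The part of these cells in the rise of the cell cycle genes was not tested.

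With C18:1 the cell cycle genes were again higher than in chow, set against the same 4 chow libraries. Of the 40 members 28 were called higher and 1 lower in C18:1 against chow, against a background of 27.8% called higher, 24.9% lower and 52.6% in all. The median log2 fold change was 2.13 for the mitosis genes (20 of 22 called higher) and 0.46 for the replication genes (7 higher and 1 lower), and each of the 29 calls held whichever single library was removed. Cyclin D1 stood at 68.9, 62.3, 82.2 and 102 CPM (log2 fold change 2.82 ± 0.31), and Mki67 at 17.1, 8.21, 9.29 and 15.6 CPM (2.56 ± 0.39). Every C18:1 library exceeded every chow library for both genes. Mcm2 stood at 9.12, 8.69, 7.80 and 7.26 CPM, Mcm7 at 19.9, 15.1, 17.1 and 16.5 CPM, and Tk1 at 8.38, 11.7, 12.3 and 8.67 CPM. Mcm2 was above all chow libraries, Mcm7 overlapped them (0.10, interval −0.13 to 0.33) and Tk1 was below all of them (fell by 1.46, adjusted p = 0.00200). Cdc6 was called in this comparison (1.54 ± 0.43, adjusted p = 0.00933), and Cdkn1a was not (1.43, adjusted p = 0.0666) although its groups did not overlap. Cdkn1a was called with DESeq2 (adjusted p = 0.0475) and limma voom (0.01655). It also passed in edgeR with the compared groups fitted alone (0.01656) and without chow replicate 1 (0.0469). Neither gene was called between C18:1 and MASH. Transcripts of other cell types moved here too: 10 of 10 macrophage, 7 of 7 T and NK cell, 5 of 7 cholangiocyte and 6 of 7 stellate cell markers were called higher and 8 of 8 hepatocyte markers lower. Their part in this difference was not tested. Without the 2 libraries whose labels disagree, 28 members were called higher and 1 lower, the same counts as without the 2 libraries with pancreatic transcripts. With groups taken from the treatment tags 27 were called higher, with medians of 1.73 for mitosis and 0.33 for replication. The call of Tk1 was lost with the tags (log2 fold change −0.73, adjusted p = 0.198, edgeR).

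**Figure D4:**
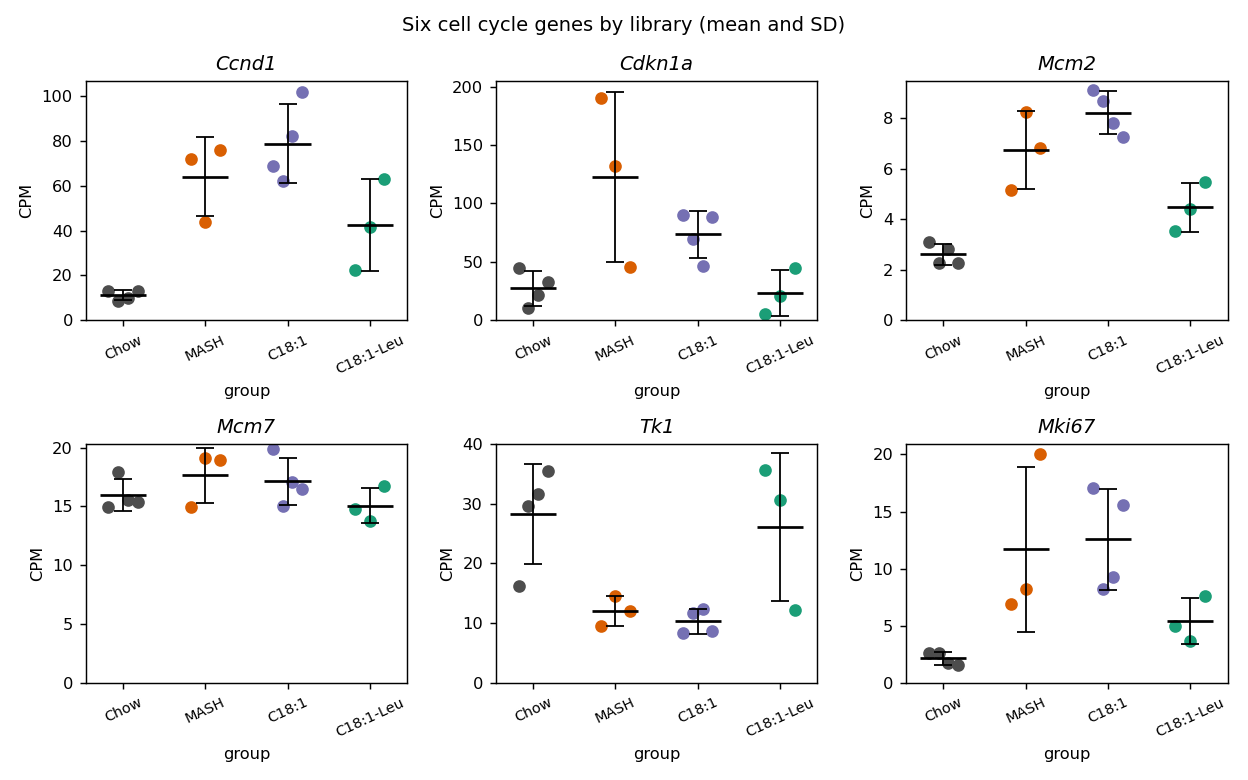
CPM of Ccnd1, Cdkn1a, Mcm2, Mcm7, Tk1 and Mki67 in each library (points) by group, with the group mean (long bar) and SD (error bars); each axis starts at 0. Ccnd1, Mcm2 and Mki67 are lowest in chow and intermediate in the C18:1-leucine mean, Mcm7 overlaps in all groups, and Tk1 spreads widely within the C18:1-leucine group.

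Between C18:1 and MASH no difference was called. None of the 40 members passed, against a background of 0% of all tested genes, and none of the 40 had an unadjusted p below 0.05, as 968 of all genes did. DESeq2 and limma voom also called none of the 40. The median log2 fold change was 0.06 for replication and 0.08 for mitosis. The intervals were wide for the mitosis genes: Mki67 had 0.10 with an interval of −0.73 to 0.93, and Cdc20 −0.17 with −1.38 to 1.05. They were narrower for replication genes, such as Mcm3 (0.13, −0.15 to 0.40) and Pcna (−0.02, −0.19 to 0.14). The sign of the mitosis median was not stable: it was 0.78 without MASH replicate 4, −0.22 without MASH replicate 3, −0.16 without MASH replicate 2, −0.11 without the 2 libraries whose labels disagree and −0.47 with groups from the tags. Without the libraries whose labels disagree 0 members were called, and 0 without those with pancreatic transcripts.

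With C18:1-leucine the group mean of the mitosis genes (0.97) lay between chow and the means of the MASH (1.81) and C18:1 (2.00) groups, and so did that of the replication genes (0.20, against 0.43 and 0.52). Averaged as above, the 3 libraries stood at 0.70, 0.63 and 1.57 for mitosis and 0.18, 0.22 and 0.19 for replication. The C18:1 libraries stood at 2.48, 1.67, 1.54 and 2.32 for mitosis and 0.67, 0.45, 0.46 and 0.49 for replication. For replication, every C18:1-leucine library was below every C18:1 library but above MASH replicate 2 (0.12). For mitosis, C18:1-leucine replicate 4 lay above C18:1 replicate 3 and above MASH replicates 2 and 3, and replicates 1 and 2 lay below all libraries of both groups. Of these low libraries, replicate 1 has labels that disagree and replicate 2 held pancreatic transcripts. Single genes had other orders: the C18:1-leucine mean of Cdkn1a (23.3 CPM) was below that of chow (27.3 CPM), those of Cdc45 (1.25 CPM) and Mcm7 (15.1 CPM) were the lowest of the 4 groups, and those of Ccne1 (2.14 CPM) and Tyms (6.42 CPM) were the highest.

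Against chow, 7 members were called higher and 1 lower in C18:1-leucine, with 10.2% of all genes called higher, 4.34% lower and 14.5% in all. Cyclin D1 stood at 22.3, 41.8 and 63.2 CPM, above all chow libraries, with a log2 fold change of 1.92 ± 0.31 (adjusted p = 0.00246). The others called higher were Mcm2 (0.78), Mcm3 (0.68), Mki67 (1.35), Ccnb1 (2.22), Cenpe (1.64) and Ube2c (1.54), and Cdc45 fell by 0.68. The mitosis median was 1.04, with 22 of 22 positive and 4 called, and the replication median was 0.20. These calls rested on few libraries. Between 2 and 6 of the 8 were kept when 1 library was left out, 4 members were called higher without the 2 libraries whose labels disagree, 2 without those with pancreatic transcripts and 1 with groups from the tags. Of the cell type markers, 8 of 10 for macrophages, 1 of 7 for T and NK cells, 1 of 7 for cholangiocytes and 2 of 7 for stellate cells were called higher. Of 8 hepatocyte markers 1 was called lower. The part of these cells was not tested.

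Against MASH, no member was called for C18:1-leucine, where 0.0702% of all genes were (11 genes, 0.0638% lower and 0.00638% higher). Unadjusted p was below 0.05 for 17 of the 40 and for 2836 of the 15674 tested genes, the lowest adjusted p was 0.114 (Aurkb), DESeq2 called 1 member higher and 3 lower, and limma voom called 1 lower. All 22 mitosis genes had negative log2 fold changes, with a median of −1.06, against −0.30 for replication and −0.0133 for all genes. In 8 members all C18:1-leucine libraries were below all MASH libraries, where 12% of all tested genes had this pattern. Cdkn1a was among them, at 5.05, 20.4 and 44.5 CPM against 190.1, 132 and 45.7 CPM (log2 fold change −2.40, interval −3.98 to −0.81, adjusted p = 0.129). The mitosis median was −0.23 without MASH replicate 4. Without the 2 libraries whose labels disagree 0 members were called, and 0 without those with pancreatic transcripts. Of 10 macrophage markers 2 were called lower against MASH, and no marker of the other cell type lists was called. The part of these cells was not tested.

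Against C18:1, 8 members were called lower and 1 higher with C18:1-leucine, against a background of 8.89% of all genes lower, 7.34% higher and 16.2% in all. Of these, 5 were the MCM genes that had risen on the diet. Mcm2 stood at 3.52, 4.40 and 5.48 CPM and fell by 0.88 relative to C18:1 (SE 0.19, adjusted p = 0.00987). Mcm3 was nearly the same in the 3 libraries, at 5.91, 5.93 and 5.86 CPM, against 10.02, 8.83, 8.35 and 8.39 CPM with C18:1 (−0.59 ± 0.13, adjusted p = 0.0110). Mcm4 (−0.47), Mcm5 (−1.08) and Mcm6 (−0.81) were also lower, and none of the 5 overlapped between the groups. Mcm7 stood at 14.8, 13.8 and 16.7 CPM and overlapped C18:1 (−0.18, interval −0.43 to 0.06).

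The 3 mitosis genes called lower were the kinase Aurkb (0.451, 0.388 and 0.581 CPM against 1.74, 0.881, 0.880 and 1.26 CPM, log2 fold change −1.33 ± 0.35), the checkpoint kinase Bub1b (1.31, 0.8286 and 1.68 CPM against 4.19, 2.10, 2.30 and 3.56 CPM, −1.25 ± 0.34) and Cenpe (0.795, 0.725 and 1.43 CPM against 3.41, 2.10, 1.85 and 2.52 CPM, −1.32 ± 0.38). Their adjusted p ran from 0.0222 to 0.0324, and in none did the groups overlap. The remaining 19 mitosis genes had negative values without passing. Mki67 stood at 4.96, 3.65 and 7.62 CPM, all below the C18:1 libraries (−1.21, adjusted p = 0.0564), and Top2a at 2.08, 1.89 and 3.96 CPM (−1.32, adjusted p = 0.0540). In 15 members every C18:1-leucine library was below every C18:1 library, where 14.3% of all tested genes had this pattern. The mitosis genes had the larger median (−1.09 against −0.35 for replication) but wider intervals.

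**Figure D5:**
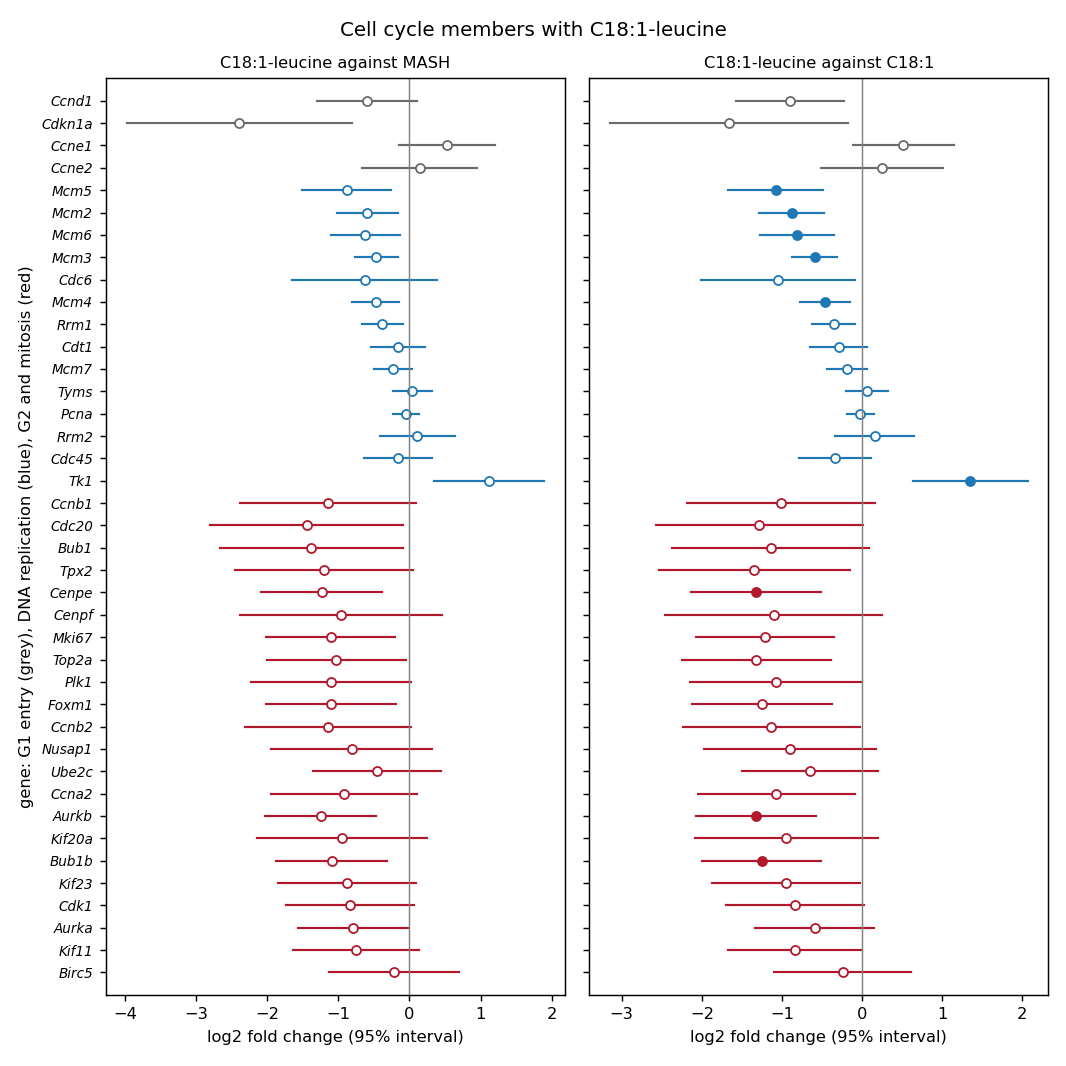
Log2 fold change of each of the 40 genes in C18:1-leucine against MASH (left) and against C18:1 (right), with 95% intervals from edgeR as lines; filled points passed an adjusted p of 0.05. All 22 red mitosis genes lie left of 0 in both panels, no point is filled on the left, and 9 are filled on the right, of which Tk1 alone is higher.

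Tk1 was the member called higher with C18:1-leucine, at 35.6, 30.7 and 12.1 CPM against 8.38, 11.7, 12.3 and 8.67 CPM with C18:1 (log2 fold change 1.35 ± 0.33, adjusted p = 0.0185). Replicate 1, whose labels disagree, was level with the highest chow library (35.5 CPM). Replicate 2, which held pancreatic transcripts, was within the chow range, and replicate 4 was within the range of C18:1. Over all alternatives the log2 fold change of Tk1 ran from 0.32 to 1.70. C18:1-leucine replicate 4 was also the library of its group with the highest mitosis level.

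The calls against C18:1 depended on the libraries. No member was called without the 2 libraries whose labels disagree, with groups from the tags, or without those with pancreatic transcripts. Each of these settings also makes the C18:1-leucine group smaller. The part of the smaller group in the loss of calls was not tested. Of the 9 calls, 2 were kept without C18:1 replicate 1 or C18:1-leucine replicate 1 or 2, and 3 without C18:1 replicate 4. The directions did not turn: over all alternatives the log2 fold change of Mcm2 ran from −1.04 to −0.46, that of Mki67 from −1.53 to −0.75 and that of Aurkb from −1.49 to −0.83.

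In the further lists, 6 of 40 mitosis genes were called lower with C18:1-leucine than with C18:1 and none higher (median −1.01), led by Incenp (−1.01), Ncaph (−1.0004), Espl1 (−1.60) and Prc1 (−1.51). Over all tested genes 8.89% were called lower and 7.34% higher. The replication, regulator and G1 lists that follow had shares called lower near that background. Of 29 further replication genes 4 were lower, among them Clspn (−1.42), and 3 were higher, among them Mcm10 (0.74) and Gins4 (0.34). Of the E2F, RB and MuvB regulators Rbl1 was lower (−0.86) and Tfdp2 (0.65), Rbbp4 (0.22) and Rbl2 (0.36) were higher. Of the further G1 genes Ccnd2 was lower (−0.69), and of the p53 targets Bax (−0.49), Zmat3 (−0.62) and Phlda3 (−1.14) were lower. None of the further genes named here kept its call without the 2 libraries whose labels disagree (adjusted p from 0.0549 for Incenp to 0.340 for Rbl2), without those with pancreatic transcripts (0.0579 for Incenp to 0.197 for Rbl2) or with groups from the tags (0.286 for Incenp to 0.939 for Tfdp2). Macrophage markers summed to 168, 221 and 372 CPM with C18:1-leucine and 825, 411, 675 and 573 CPM with C18:1, and 8 of 10 were called lower. Of 7 T and NK cell markers 3 were called lower (4.06, 4.48 and 2.86 CPM summed, against 13.6, 6.59, 4.74 and 10.9 CPM), and of 7 cholangiocyte markers 1. Of 8 hepatocyte markers 5, and of 5 erythroid markers all 5, were called higher with C18:1-leucine. The part of these cells in the difference between the compounds was not tested.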

How the data were processed

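Liver RNA was extracted with RNeasy kits and made into libraries with NEBNext Ultra II, per the labels' protocols. The authors deposited a table of expected counts per gene; GRCm38, HTSeq and DESeq2 1.42.1 are named in the submitters' processing notes, and the sources used here do not name the aligner. Fractional values (5.09% to 5.76% per library) were rounded. The authors' 6 comparison tables were not used, since their group letters have no key.

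Genes were kept by filterByExpr (minimum count 10, total 15). All 14 libraries were fitted with edgeR 4.0.16 in R 4.3.3 (TMM, robust quasi-likelihood F test), for 6 comparisons, with Benjamini-Hochberg adjustment over 15674 genes at 0.05. The fit was also run on counts simulated with its own estimates of spread. That setting is simpler than these data, so no result rests on it. Scores used a prior count of 2. Per-kilobase levels used GENCODE M21 exon unions. Alternatives used DESeq2 1.42.0 and limma 3.58.1. Comparisons against chow share the chow libraries. Any pair of libraries of a group differed by a chi-square of at least 25.02 per gene.

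Members and lists were chosen with earlier results of these data known. Values per library are given for the largest of the members that passed without overlap, for Mki67, Top2a, Ccnd1 and Cdkn1a, and for the smallest p of each role in most comparisons; of further lists, up to 4 genes with the smallest p are named. The values of a single further replication gene are not reported here.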

Additional observations from a re-analysis of the deposited data

Results flagged for a closer look

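In groups of 4 libraries (chow and C18:1), each of the 40 genes was checked for a library far from the rest, by the gap to the nearest other library relative to the range. Of 80 checks 1 passed, where chance passes about 1 in 20. Mcm3 was 4.21 CPM in chow replicate 2, and the remaining 3 chow libraries ran from 3.499 to 3.54 CPM. This library also held pancreatic enzyme transcripts (159 CPM). The highest chow value of Mcm3 was still below the lowest MASH value of 6.38 CPM.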

How the results depend on the processing

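The limits of these results are the 3 or 4 libraries per group, the disagreeing labels of C18:1 replicate 1 and C18:1-leucine replicate 1, and low counts of mitosis genes in chow. In MASH against chow, relative log expression scaling, DESeq2, limma voom with sample weights and the replicate block gave Pcna a negative value (−0.0084, −0.0085, −0.0561 and −0.0073), and DESeq2 and limma voom each called 2 members lower, both replication genes; limma voom also called 2 lower, both replication genes, in C18:1 against chow. For C18:1-leucine against chow, DESeq2 called 11 higher (7 mitosis) and limma voom called 2 mitosis genes higher. No member was called lower (0) there without the low count filter, with the compared groups fitted alone, with the replicate block, with groups from the tags, or without either pair of doubtful libraries. Higher there were 1 (0 replication, 0 mitosis) with tags, 4 (1 mitosis) without the libraries with disagreeing labels, and 2 (1 replication, 0 mitosis) without those with pancreatic transcripts, an alternative chosen after seeing the data. For C18:1-leucine against MASH, DESeq2 called 1 higher (1 replication) and 3 lower (1 replication, 1 mitosis), and limma voom 1 lower. Against C18:1, DESeq2 called 13 lower (6 mitosis) and limma voom 23 (15 mitosis). With tags, without the libraries with disagreeing labels and without those with pancreatic transcripts, 0 were lower and 0 higher, replication and mitosis alike. Tags also gave medians of −0.20 (replication) and −0.54 (mitosis) there, 0.33 and 1.73 for C18:1 against chow, −0.14 (replication) for C18:1 against MASH, and a replication level of 0.40 above chow for C18:1. Tags turned Mki67 (−0.46), Top2a (−0.41) and Mcm2 (−0.11) in C18:1 against MASH, where leaving out the disagreeing libraries also turned Mki67 (−0.0846), and both settings turned Cdkn1a (0.25) in C18:1-leucine against chow. The cause was not tested.

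Same-numbered libraries did not clearly deviate together (18 pairs, r −0.24 to 0.42, 6 above 0.1, beside 14 of 55 other pairs). Of 14 libraries 3 correlated best with their own number. The numbers thus gave no clear sign of a pairing, but with 3 or 4 libraries per group this check cannot exclude it. A replicate block gave 17 members lower (12 mitosis) in C18:1-leucine against C18:1.

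Leaving out each library in turn gave these ranges. MASH against chow: 0 to 3 members lower, 0 to 2 replication genes lower, 11 to 20 mitosis genes higher, mitosis median 1.34 to 2.32, Ccne1 −0.15 to 0.38, Pcna −0.0691 to 0.0924 and Birc5 −0.23 to 0.79. C18:1 against chow: 1 to 2 members lower, 1 to 2 replication genes lower and replication median 0.36 to 0.54. C18:1-leucine against chow: 3 to 6 higher, 0 to 1 lower, 1 to 2 replication genes higher, 0 to 1 lower, 0 to 3 mitosis genes higher, mitosis median 0.69 to 1.19, Cdkn1a −1.12 to 0.25 and replication level 0.16 to 0.22. C18:1 against MASH: mitosis median −0.22 to 0.78 and Mki67 −0.17 to 0.73. C18:1-leucine against MASH: mitosis median −1.41 to −0.23. C18:1-leucine against C18:1: 0 to 1 higher, 2 to 11 lower, 0 to 1 replication genes higher, 2 to 5 lower and 0 to 6 mitosis genes lower.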
